A study of Mus musculus with 4 samples.

Results

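Respiratory complex I was read here through the nuclear genes that encode its subunits and the assembly factors named after it. The members were the probe sets that the platform annotation gave to a single gene whose symbol starts with Nduf and goes on with the letters of a subunit series (A, B, C, S, V or AB) or of an assembly factor (AF) and a number. The rule found 88 of the 45101 probe sets on the array, and these read 44 of 18193 genes. A gene was read from its probe set with the highest mean, and 42 of the 44 genes were bright enough to be tested, as were 84 of the 88 probe sets.

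Complex I, the NADH:ubiquinone oxidoreductase of the inner mitochondrial membrane, is the entry point of electrons from NADH into the respiratory chain. Its peripheral arm holds the core subunits that oxidise NADH and pass the electrons through iron-sulfur clusters to ubiquinone, and its membrane arm, whose core subunits are encoded by mitochondrial DNA, pumps protons. Accessory subunits surround the core, and assembly factors help to put the modules together without staying in the finished enzyme. Brown fat, muscle and kidney tubules are rich in mitochondria, so the amount of complex I RNA in a tissue also depends on which cells it holds.

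The study, on Notch signaling in cancer of the urothelium, hybridised 2 ureter tumors and 2 normal ureters, each on 1 Affymetrix Mouse Genome array. Both groups are labelled with the background C57Bl/6 and an age of 6 to 8 weeks, and the labels describe isolated ureter epithelium. A single treatment description was given for all 4 samples: doxycycline for 1 week, begun at 3 weeks of age, in R26rtTA;teto-Cre;Ncstnf/f mice, to recombine the conditional alleles of the gamma-secretase subunit nicastrin. The genotype of each sample, and whether the normal ureters carried these alleles or received doxycycline, is not given beyond that text. The R26 transgene expresses the doxycycline-dependent activator from a locus active in most tissues, so recombination was not confined to urothelium by its promoter. The labels call the samples biological replicates and do not name the animals, so each p-value rests on the spread seen between these 4 arrays, which may be technical.

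The deposited values were MAS5 signals, with a trimmed mean of 500 on normal replicate 1, where it was computed. The median signal was 84.9 and 93.8 on the tumor arrays, against 106.4 and 102.7 on the normal arrays. Precision is limited by having 2 arrays per group. Ncstn, the targeted gene, had signals of 81.6 and 131 in the tumors and 99.0 and 66.2 in the normal ureters, but the position of its probes relative to the deleted part is not known here, so these values do not check the labels. Urothelial tissue was checked by its markers. Krt7, a keratin of simple and urothelial epithelia, had signals of 19322 and 6708 on the tumor arrays and 14089 and 23467 on the normal arrays. In contrast Upk3a, a plaque protein of the urothelial surface, had signals of 69.8 and 52.3 on the tumor arrays and 5987 and 11463 on the normal arrays. Although the labels describe isolated epithelium, markers of fat, smooth muscle and kidney also gave signal on the normal arrays, as given below. Ucp1, a brown fat gene, had 19660 and 21580 there. In RNA from a mixture of cells, fewer cells of a type and less RNA per cell cannot be told apart.

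Complex I RNA was lower on the tumor arrays across nearly the whole set of subunits, yet no gene passed the test after adjustment. Differences are tumor minus normal on the log2(signal + 16) scale, tested with limma and Benjamini-Hochberg adjustment over the 13046 genes tested, at a threshold of 0.05. Of the 42 complex I genes tested, 0 were called, against 187 of 13046 genes (1.43%) over the array. Lower calls made up 0.943% and higher calls 0.491% of all genes tested. The lowest adjusted p among the complex I genes was 0.0824, for Ndufs4. At an unadjusted p under 0.05, 26 were lower and 1 was higher in the tumors, where 10.9% of all genes tested were lower and 10.6% were higher. The fitted difference was below 0 for 39 of 42 complex I genes and for 48.2% of all genes tested. Both tumor arrays lay below both normal arrays for 36 complex I genes, against 27.7% of all genes tested. Both lay above for 1, Ndufb1, against 29.4% of all genes, and for the other 5 the groups overlapped.

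The median difference over the 42 genes was -0.998, with quartiles of -1.28 and -0.76, beside a median of 0.03 over all genes tested. At least a 2-fold lower signal was measured for 21 genes, of which 20 also had an unadjusted p under 0.05, as did 7.5% of all genes tested. The 33 subunit genes had a median difference of -1.11, while the 8 assembly factors had one of -0.43.

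**Figure D1:**
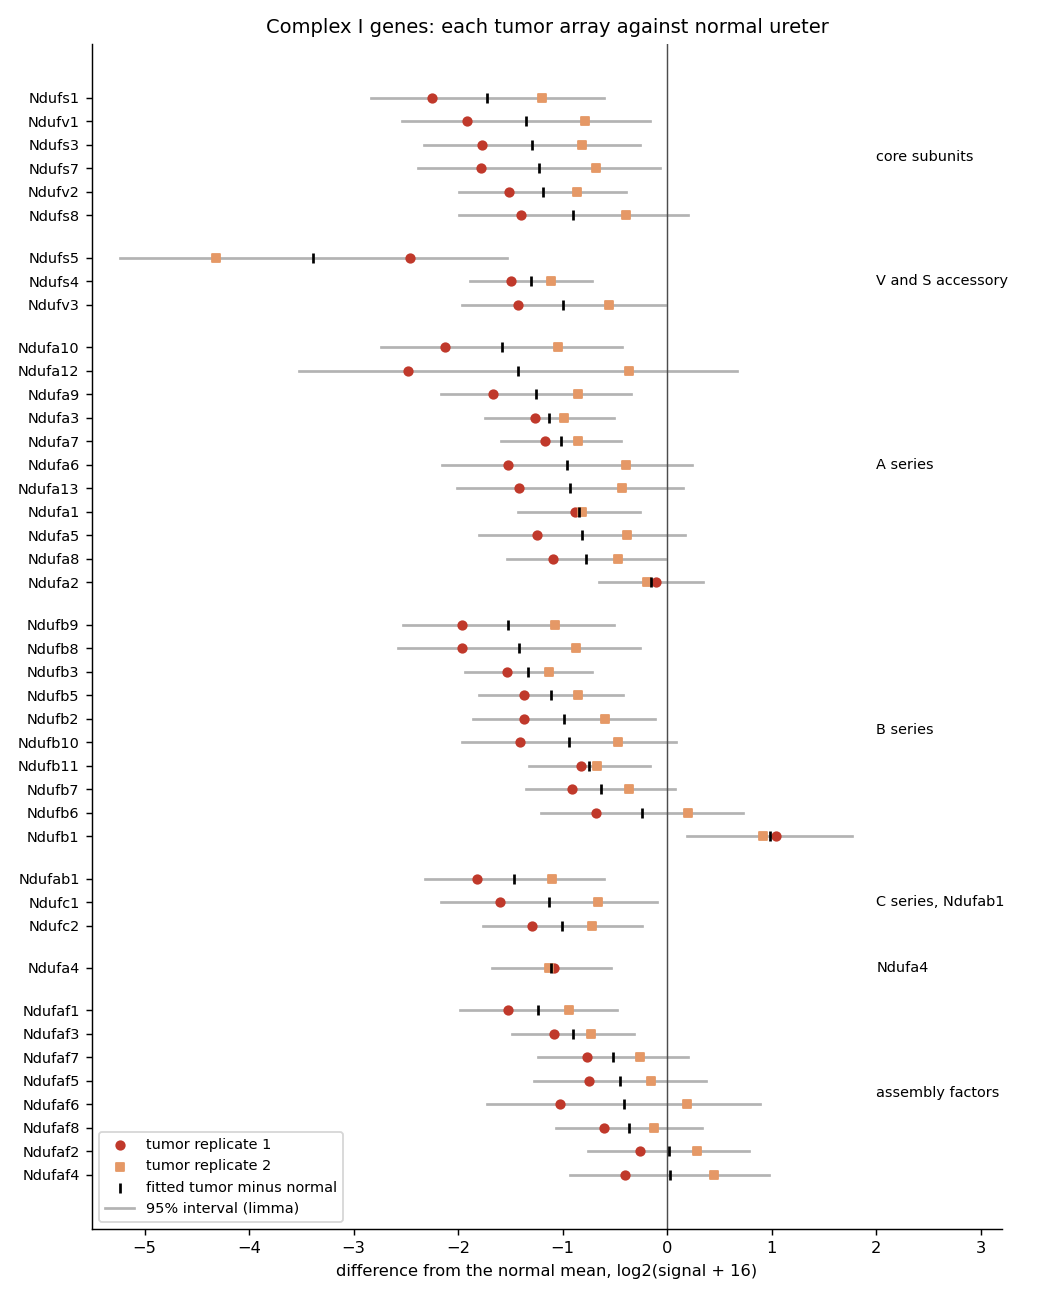
Log2 differences of the 42 tested complex I genes from the mean of the normal arrays, with 1 row per gene in the order of the subunit series. Circles and squares are the tumor replicates, black ticks the fitted difference and grey lines the 95% limma interval. Nearly all rows lie left of 0, with tumor replicate 1 further left than tumor replicate 2 in 38 of 42 genes, and Ndufb1 alone has both tumor arrays to the right.

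The core subunits that oxidise NADH were among the lower ones. Ndufv1, which carries the NADH binding site and the flavin, had signals of 3883 and 8527 on the tumor arrays, against 14602 and 14805 on the normal arrays. Ndufv2, an iron-sulfur subunit beside it, had 6629 and 10399 in the tumors and 18836 and 19075 in the normal ureters. Ndufs1, the largest subunit of the peripheral arm and the carrier of several iron-sulfur clusters, had 1979 and 4118 in the tumors and 10061 and 8881 in the normal ureters. In all 3 genes both tumor arrays were below both normal arrays, and tumor replicate 1 was the lower of the tumors. The difference was -1.35 for Ndufv1 (SE 0.43, adjusted p = 0.196), -1.19 for Ndufv2 (SE 0.29, adjusted p = 0.142) and -1.72 for Ndufs1 (SE 0.41, adjusted p = 0.136).

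The core subunits that bring electrons to ubiquinone had the same order of arrays. Ndufs3, a scaffold of the early assembly intermediate, had 3948 and 7659 in the tumors and 13359 and 13630 in the normal ureters. Ndufs7, which holds the last iron-sulfur cluster before ubiquinone, had 3328 and 7155 in the tumors and 11713 and 11198 in the normal ureters. Ndufs8, an iron-sulfur subunit that links the arms, had 6725 and 13560 in the tumors and 18314 and 17296 in the normal ureters. The groups did not overlap in any of these genes, and the second tumor array lay closer to the normal ones than the first did. Their differences were -1.29 (SE 0.37, adjusted p = 0.175) for Ndufs3, -1.23 (SE 0.42, adjusted p = 0.213) for Ndufs7 and -0.90 (SE 0.40, adjusted p = 0.295) for Ndufs8.

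Core subunits of the membrane arm come from mitochondrial DNA and fall outside the rule. A probe set for one of them, ND5, chosen after its values were seen, had signals of 11562 and 32081 in the tumors and 59279 and 49625 in the normal ureters. Both tumor arrays were below both normal arrays here too, with a difference of -1.49 (SE 0.57, adjusted p = 0.245).

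**Figure D2:**
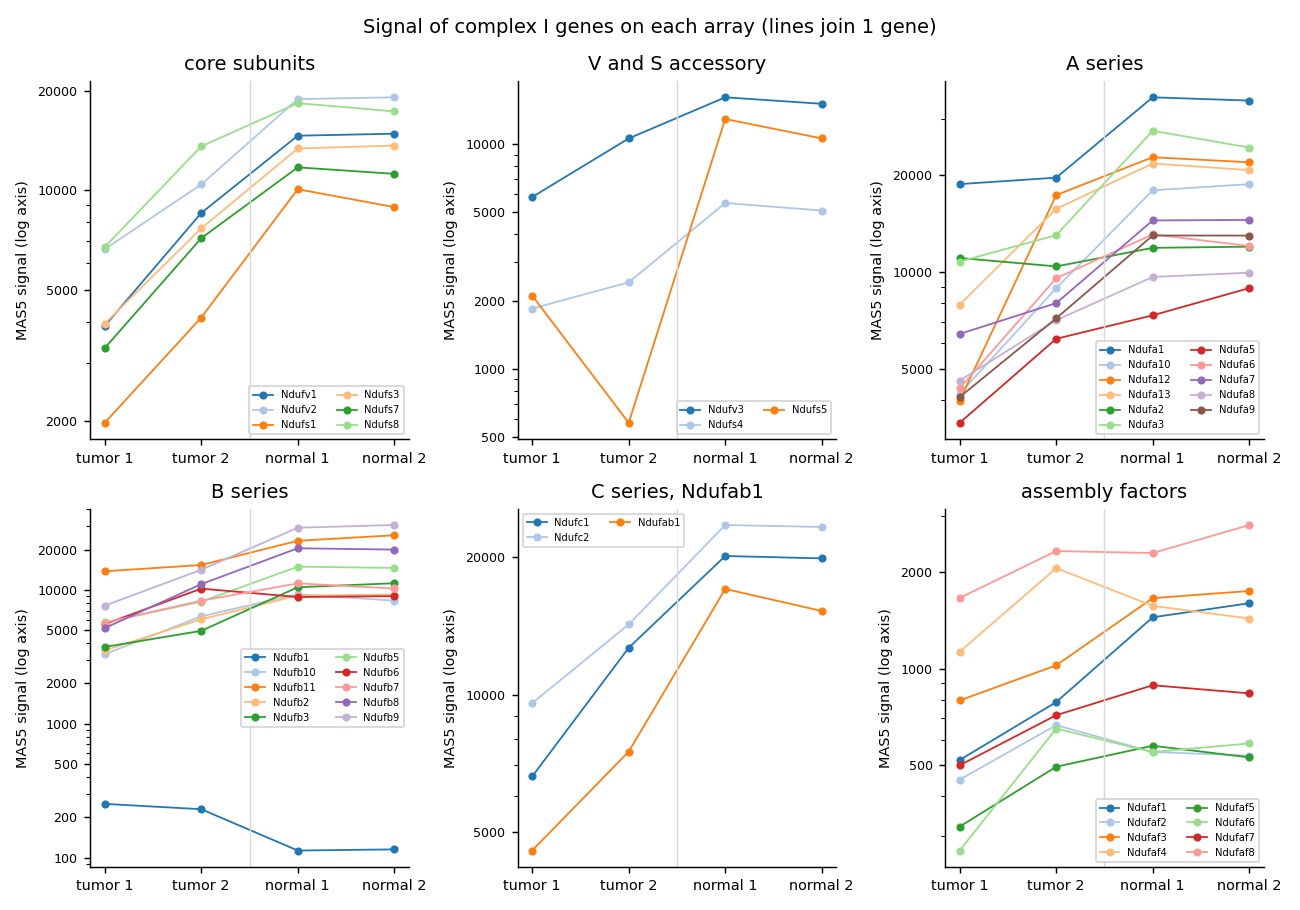
MAS5 signal (log axis) of the tested complex I genes other than Ndufa4 on the 2 tumor arrays, left, and the 2 normal arrays, right. Each line joins the values of 1 gene. The normal arrays lie almost level with each other, the first tumor array is lowest for most subunits, and Ndufs5 and Ndufb1 do not follow the other lines.

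Among the accessory subunits of the V and S series, Ndufs4, which is needed for a stable peripheral arm, had 1860 and 2433 in the tumors and 5488 and 5079 in the normal ureters. Its difference of -1.30 (SE 0.21) had the lowest adjusted p of all complex I genes. On the probe set that read it, the tumor arrays were close to each other, a pattern that naming genes by small p favours. Of its 3 probe sets past the filter, the dimmer ones had differences of -0.65 and -0.17. The size of the Ndufs4 difference thus depends on the probe set. Ndufv3, a small subunit of the NADH-oxidising part, had a difference of -0.99 (adjusted p = 0.225).

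Ndufs5, an accessory subunit on the intermembrane side of the membrane arm, had the largest negative difference of the 42 genes tested. Its signals were 2123 and 576 in the tumors and 12985 and 10638 in the normal ureters, a difference of -3.39 (SE 0.67, 95% interval -5.24 to -1.54, adjusted p = 0.109). Tumor replicate 2 was the lower tumor here, opposite to most subunits. Another probe set, which the annotation assigns both to Ndufs5 and to its pseudogene Ndufs5-ps and which is therefore no member, had 4075 and 5867 in the tumors and 10544 and 10098 in the normal ureters, a difference of -1.07. Both probe sets were lower on both tumor arrays, and they gave the tumor arrays in opposite orders, so the size of the Ndufs5 difference rests on 1 probe set.

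All 11 tested subunits of the A series had both tumor arrays below both normal arrays, against 27.7% of all genes tested. Their differences ran from -1.58 to -0.15, with a median of -0.96. Ndufa1, a small membrane subunit needed early in assembly, had signals of 18769 and 19654 in the tumors and 34930 and 34121 in the normal ureters, a difference of -0.85 (SE 0.21, adjusted p = 0.149). Ndufa3, an accessory subunit of the membrane arm, had 10782 and 13022 in the tumors and 27487 and 24382 in the normal ureters, a difference of -1.13 (SE 0.22, adjusted p = 0.110). Ndufa7, an accessory subunit of the peripheral arm, had 6421 and 8007 in the tumors and 14471 and 14522 in the normal ureters, a difference of -1.01 (SE 0.21, adjusted p = 0.115). In these 3 genes the tumor arrays stood close together and well below the normal arrays. They were named for their small unadjusted p, a choice that favours this pattern.

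The ends of the A series were named after their values were seen. Ndufa10, an accessory subunit of the membrane arm, was the lowest at -1.58, with 4186 and 8912 in the tumors and 17954 and 18758 in the normal ureters. Its other probe set was dim, and the groups overlapped on it, with a difference of -0.37. The size of the Ndufa10 difference thus rests on 1 probe set. Ndufa12, an accessory subunit of the peripheral arm whose paralog is the assembly factor Ndufaf2, had 3984 and 17346 in the tumors and 22752 and 21937 in the normal ureters. Its difference of -1.42 (SE 0.76, adjusted p = 0.363) thus came with the tumor arrays far apart. Of its other bright probe sets, one had 5007 and 14587 in the tumors, a difference of -1.11. Another had 3858 and 5824, a difference of -0.91, so the gap between the tumor arrays depends on the probe set. Ndufa2, a thioredoxin-like accessory subunit, stood nearest to 0, with 11061 and 10412 in the tumors and 11892 and 11994 in the normal ureters. Its difference of -0.15 had a 95% interval of -0.65 to 0.35 (adjusted p = 0.668), and with each array centred on its median it was 0.0741, so no direction is given for it.

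The B series builds most of the outer membrane arm. Of the 9 tested genes on its list, 8 had both tumor arrays below both normal arrays, against 27.7% of all genes tested. Their list, with a median difference of -0.99, leaves out Ndufb1, a tested gene with both tumor arrays above both normal arrays. Ndufb3 had 3748 and 4945 in the tumors and 10473 and 11220 in the normal ureters, a difference of -1.33 (SE 0.22, adjusted p = 0.0847). Ndufb5 had 5710 and 8166 in the tumors and 14929 and 14598 in the normal ureters, a difference of -1.11 (SE 0.25, adjusted p = 0.129). Ndufb9 had 7630 and 14145 in the tumors and 29182 and 30563 in the normal ureters, a difference of -1.52 (SE 0.37, adjusted p = 0.139). All 3 are accessory subunits of the membrane arm, and in each the higher tumor array was still well below the lower normal array. These too were named for their small unadjusted p, which favours such a gap.

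Exceptions in the B series were also chosen after their values were seen. Ndufb6 overlapped between the groups, with 5542 and 10225 in the tumors and 8852 and 8989 in the normal ureters (difference -0.24, adjusted p = 0.730). Its other probe set gave 3363 and 6564 in the tumors and 11043 and 10170 in the normal ureters, a difference of -1.17, so the gene's reading depends on the probe set. Ndufb1, a small membrane subunit that was not on the B series list, had 252 and 230 in the tumors and 113 and 115 in the normal ureters. Its difference of 0.98 (SE 0.29, 95% interval 0.19 to 1.77, adjusted p = 0.177) was the only one of the 42 with both tumor arrays above both normal arrays. It rests on a single dim probe set.

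Ndufb4 could not be read from its single-gene probe set, which had 28.3 and 43.3 in the tumors and 23.6 and 26.0 in the normal ureters and did not pass the filter on low values. The probe sets that the annotation shares between Ndufb4 and its copies Ndufb4b and Ndufb4c were bright, and their differences were -0.98 and -0.85. Of the other genes with shared probe sets, the probe set of Ndufs6 and Ndufs6b had a difference of -0.83 and the brighter one of Ndufa11 and Ndufa11b had a difference of -0.32.

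Ndufab1, the mitochondrial acyl carrier protein, serves both as a complex I subunit and in fatty acid and iron-sulfur cluster synthesis. It had 4553 and 7504 in the tumors and 17062 and 15264 in the normal ureters, with a difference of -1.46 (SE 0.31, adjusted p = 0.121). Its 5 probe sets had differences of -1.46 to -0.82. The small membrane subunits Ndufc1 and Ndufc2 had differences of -1.13 and -1.003, each with both tumor arrays below both normal arrays.

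Ndufa4 carries a complex I name but is now regarded as a subunit of cytochrome c oxidase. It had 16270 and 15797 in the tumors and 34857 and 34240 in the normal ureters, a difference of -1.11 (SE 0.21, adjusted p = 0.101), and the replicates of each group were nearly equal. Its paralog Ndufa4l2, which is induced under hypoxia, had 111 and 17.6 in the tumors and 81.2 and 12.6 in the normal ureters. The groups overlapped, and Ndufa4l2 did not pass the filter and was not tested.

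Of the 8 assembly factors, 4 had both tumor arrays below both normal arrays, against 27.7% of all genes tested, and the other 4 overlapped between the groups. Whether they differed from the subunits was not tested. Ndufaf1, which works with Acad9 and Ecsit on the membrane arm, had 518 and 786 in the tumors and 1446 and 1600 in the normal ureters, a difference of -1.23 (SE 0.27, adjusted p = 0.128). Ndufaf3, a factor of the early intermediate that joins the arms, had 796 and 1024 in the tumors and 1660 and 1747 in the normal ureters, a difference of -0.90 (SE 0.21, adjusted p = 0.135). These were the only assembly factors of the 8 with an unadjusted p under 0.05.

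Ndufaf4, the partner of Ndufaf3, differed from it in order, with 1128 and 2059 in the tumors on either side of 1570 and 1433 in the normal ureters. Its difference of 0.02 had a 95% interval of -0.93 to 0.97 (adjusted p = 0.979). Ndufaf2, the paralog of Ndufa12 that acts late in assembly, had 450 and 666 in the tumors and 549 and 535 in the normal ureters, a difference of 0.01 with a 95% interval of -0.76 to 0.78 (adjusted p = 0.984). The groups overlapped for both factors. The signs of both turned with quantile normalization, to -0.0168 for Ndufaf4 and -0.0310 for Ndufaf2, so neither is given a direction.

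The other assembly factors had small negative differences. Ndufaf5, which hydroxylates Ndufs7, had 321 and 494 in the tumors and 574 and 528 in the normal ureters (difference -0.45, adjusted p = 0.449). Ndufaf7, an arginine methyltransferase, had 499 and 715 in the tumors and 887 and 837 in the normal ureters (difference -0.52, adjusted p = 0.340). Both had their tumor arrays below the normal arrays. Ndufaf8, which stabilises Ndufaf5, had 1662 and 2328 in the tumors and 2295 and 2807 in the normal ureters (difference -0.37, adjusted p = 0.465). Ndufaf6, needed for the early membrane arm, had 270 and 650 in the tumors and 549 and 584 in the normal ureters (difference -0.42, adjusted p = 0.656). The groups overlapped for these last factors.

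Assembly factors with other names were read from a separate list of 11 genes, of which 10 were tested. None was called by limma, against 1.43% of all genes tested, and 4 were lower at an unadjusted p under 0.05, against 10.9%. Both tumor arrays lay below both normal arrays for 7 of them, against 27.7% of all genes tested, and the median difference was -0.66. Tmem70, which acts on complexes I and V, had 1156 and 1609 in the tumors and 2819 and 2885 in the normal ureters, a difference of -1.06 (adjusted p = 0.124). Acad9, an acyl-CoA dehydrogenase that doubles as an assembly factor, had a difference of -1.51 (adjusted p = 0.154). For Foxred1, an oxidoreductase needed for the membrane arm, it was -1.44 (adjusted p = 0.177).

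Single probe sets gave the same picture as the chosen ones. Of the 84 probe sets past the filter, 80 had a difference below 0, against 53.4% of the 27022 probe sets fitted, and 71 had both tumor arrays below both normal arrays, against 31.8%. Both tumor arrays were above both normal arrays for 1 probe set, that of Ndufb1, against 25.4%. In that fit 0 were called, where 473 of 27022 (1.75%) were called over the array (1.19% lower and 0.563% higher), and at an unadjusted p under 0.05, 49 were lower and 1 was higher, where 12.7% of all probe sets were lower and 9.38% higher. Among the 63 with a mean signal of at least 1000, 62 were below 0, with a median of -1.02. Several probe sets passed for 22 genes, and in 20 of these all had the same sign. The exceptions were Ndufs8, whose 6 probe sets ran from -1.02 to 0.25 with the positive one dim, and Ndufaf4, whose probe sets ran from -0.23 to 0.02. Probes shared between transcripts are marked in the names of 21 of the 88 probe sets, and 8 genes were read from such a probe set.

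**Figure D3:**
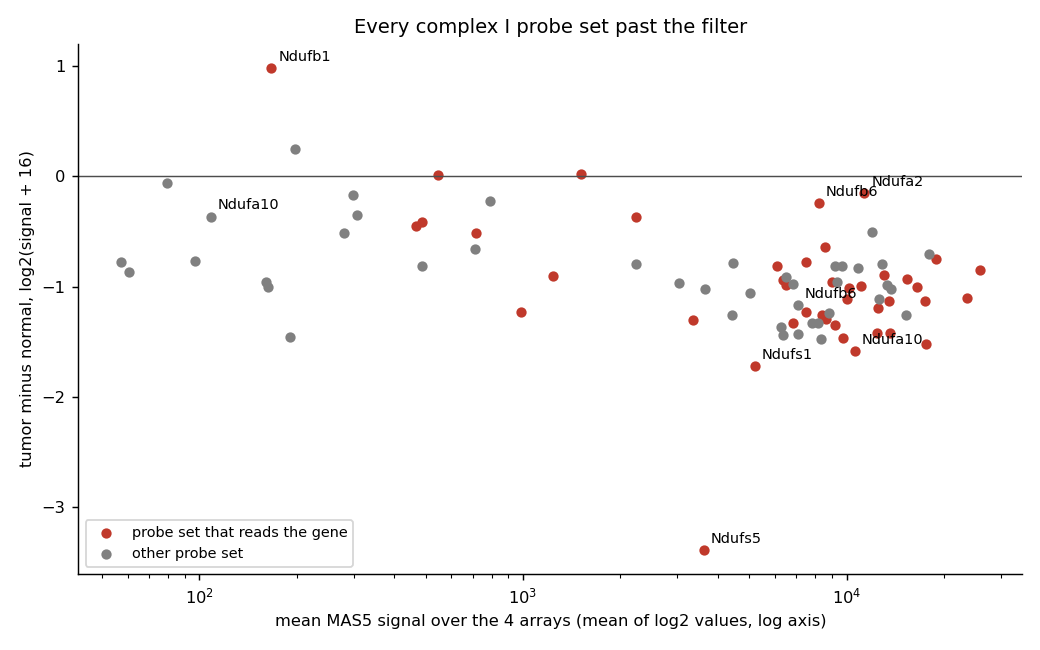
Log2 difference between tumor and normal ureter (vertical axis) against mean MAS5 signal (log axis) for each of the 84 complex I probe sets past the filter. Red points are the probe sets that read a gene and grey points the others. Most of the bright probe sets lie near -1, Ndufs5 lies far below them, and Ndufb1 is the single dim point near 1.

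The tumors differed more from each other than the normal ureters did. Over the 42 complex I genes the median absolute log2 difference between the tumor arrays was 0.75 and that between the normal arrays was 0.07, against 0.47 and 0.20 over all genes tested. Tumor replicate 1 was below tumor replicate 2 for 38 of the 42 genes (90.5%), where this held for 48.8% of all genes. The median difference from the normal mean was -1.39 for tumor replicate 1 and -0.67 for tumor replicate 2. Below the normal mean lay 41 genes in tumor replicate 1 and 37 in tumor replicate 2, and 8 genes were at least 2-fold lower in both.

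Leaving out a tumor moved the number of complex I genes called. Without tumor replicate 1, 28 of 42 were called, all lower, where 32.9% of all genes tested were called. Without tumor replicate 2, 39 were called, 38 lower and 1 higher, where 42.2% of all genes were called. In both fits the spread came from the normal arrays alone, and the single tumor was assumed to vary as little as they did. Without normal replicate 1, the median complex I difference was -0.997, beside a median of 0.0273 over all genes tested. Without normal replicate 2, these medians were -1.02 and 0.0237. When a normal array was left out, the spread came from the tumor arrays alone.

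The promoters of 39 of the 44 genes were available as windows of 250 bases before to 50 bases after a transcription start, in RefSeq's annotation of the mouse genome build GRCm38.p6. The 250 bases before the start are shown for 4 of them. Ndufs5 is shown because it had the largest negative difference, Ndufs3 as a core subunit, Ndufs4 because it had the lowest adjusted p, and Ndufaf4 because its groups overlapped. They lie at chr4:123718187-123718436 for Ndufs5, chr2:90904722-90904971 for Ndufs3 and chr13:114388095-114388344 for Ndufs4, all on the minus strand, and at chr4:24897833-24898082 on the plus strand for Ndufaf4. Each is written 5′ to 3′ along the gene's strand. Capitals mark matches, on either strand, to the 4 motifs described next.
Ndufs5: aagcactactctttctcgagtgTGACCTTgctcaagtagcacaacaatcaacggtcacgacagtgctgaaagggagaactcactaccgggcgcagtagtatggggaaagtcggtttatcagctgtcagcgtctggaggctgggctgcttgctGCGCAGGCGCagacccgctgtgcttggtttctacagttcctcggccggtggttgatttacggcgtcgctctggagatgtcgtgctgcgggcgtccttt
Ndufs3: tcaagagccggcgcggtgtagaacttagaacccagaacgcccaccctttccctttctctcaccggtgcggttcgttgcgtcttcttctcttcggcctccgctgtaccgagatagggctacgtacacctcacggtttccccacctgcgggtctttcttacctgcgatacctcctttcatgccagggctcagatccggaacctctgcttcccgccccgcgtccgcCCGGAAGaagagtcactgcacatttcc
Ndufs4: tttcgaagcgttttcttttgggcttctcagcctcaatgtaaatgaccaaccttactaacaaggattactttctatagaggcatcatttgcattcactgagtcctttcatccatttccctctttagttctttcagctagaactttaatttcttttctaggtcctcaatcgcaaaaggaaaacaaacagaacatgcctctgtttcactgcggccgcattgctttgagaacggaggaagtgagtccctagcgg
Ndufaf4: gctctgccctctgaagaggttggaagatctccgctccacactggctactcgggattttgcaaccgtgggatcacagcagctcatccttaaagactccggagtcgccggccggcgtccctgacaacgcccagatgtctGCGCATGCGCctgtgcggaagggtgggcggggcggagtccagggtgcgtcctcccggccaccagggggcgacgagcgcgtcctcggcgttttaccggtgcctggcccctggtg

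Searched in these windows on both strands were the site of NRF1 (GCGC and TGCGC with any base between them), an ETS site as bound by GABPA (CCGGAAG), a YY1 site (AAGATGGCG) and the site of estrogen-related receptors (AAGGTCA), all factors known to bind promoters of respiratory chain genes. An ETS motif can run into a YY1 motif through the letters AAG, which happened in none of the 39 genes. A match is a description of these letters and no evidence of binding. The NRF1 motif was found in 7 of 39 complex I genes (17.9%) and in 5.19% of all 27025 genes with a window, and the YY1 motif in 5 (12.8%) and in 1.64% of all genes. The ETS motif was found in 6 (15.4%) and in 9.93% of all genes, and the receptor site in 3 (7.69%) and in 5.38%. At least 1 motif stood in 18 of the 39 genes. In Ndufs5 the NRF1 motif began at -98 and the receptor site at -228, in Ndufs3 an ETS motif began at -27, and in Ndufaf4 the NRF1 motif began at -113, counted from the start with the first base before it as -1. The YY1 motif of Ndufs4 began 36 bases into the transcript, outside the stretch shown. Whether the motifs go with the differences between the groups was not tested.

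The other respiratory complexes were lower on the tumor arrays as well. The 40 tested genes of complexes II to V had a median difference of -1.08. Both tumor arrays lay below both normal arrays for 36 of them, against 27.7% of all genes tested. Their medians against the normal mean were -1.30 in tumor replicate 1 and -0.73 in tumor replicate 2, and 37 of the 40 were lower in replicate 1. By complex, the medians were -1.45 for II, -1.32 for III, -1.07 for IV and -0.75 for V, beside the -0.998 of the complex I genes. In complex II, succinate dehydrogenase, the genes with the smallest p were Sdhb at -1.67 (adjusted p = 0.154), Sdha at -1.83 (adjusted p = 0.171) and Sdhd at -1.24 (adjusted p = 0.230). In complex III, the core protein Uqcrc1 stood at -1.40 (adjusted p = 0.0714).

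The one gene of these complexes that passed the test was Cox8b, a subunit of complex IV found in heart, skeletal muscle and brown fat, which had 110 and 29.9 in the tumors and 36514 and 31248 in the normal ureters and fell by 8.80 (adjusted p = 0.0369). Cox6c, with the next smallest p of complex IV, stood at -1.43 (adjusted p = 0.122). Cox7a1, another subunit of muscle and brown fat, had 64.5 and 740 in the tumors and 6947 and 7450 in the normal ureters, a difference of -4.87 (adjusted p = 0.135). No complex I gene had a difference as large as that of Cox8b or Cox7a1. Of the 12 complex IV genes tested, 1 overlapped between the groups. This was Cox6a2, named after its values were seen, with 121 and 72.0 in the tumors and 63.6 and 87.9 in the normal ureters. Its difference was 0.27 (adjusted p = 0.751). The median log2 level of the complex I genes, less that of complexes II to V, was -0.99 and -0.75 in the tumors and -0.87 and -0.99 in the normal ureters, so the groups overlapped on this scale.

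**Figure D4:**
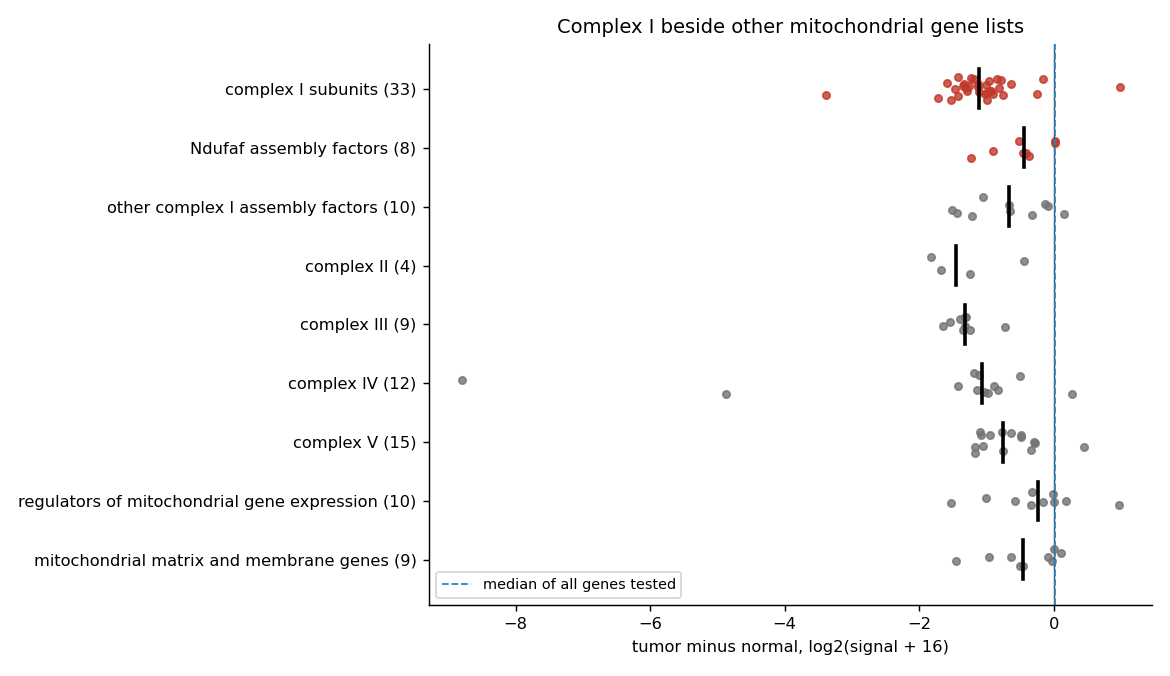
Fitted log2 difference between tumor and normal ureter for complex I genes (red; the subunits include Ndufab1 and exclude Ndufa4) and for other mitochondrial gene lists (grey), with 1 point per gene tested and the number of genes in brackets. Black bars are list medians, and the dashed line is the median of all genes tested, 0.03. The medians of complexes II to V lie from -1.45 (complex II) to -0.75 (complex V). Those of the regulators (-0.24) and of the matrix and membrane genes (-0.45) are smaller in size. Single genes of the matrix and membrane list run from -1.45, for the matrix enzyme Cs, to 0.11.

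Lists of mitochondrial genes outside the respiratory chain had smaller median differences. The 76 mitochondrial ribosomal protein genes had a median difference of -0.47. Both tumor arrays lay below both normal arrays for 56, against 27.7% of all genes tested, and above for 4, against 29.4%. Of the 76, limma called 0, with 24 lower and 1 higher at an unadjusted p under 0.05, against 10.9% and 10.6%. The 9 tested genes of the mitochondrial matrix and membranes had a median of -0.45. Among them Cs, citrate synthase, had 7265 and 8346 in the tumors and 22444 and 20097 in the normal ureters, a difference of -1.45 (adjusted p = 0.0690). The median log2 level of the complex I genes, less that of the ribosomal protein genes, was 1.76 and 2.39 in the tumors and 2.65 and 2.54 in the normal ureters, without overlap. Less that of the matrix and membrane genes, it was -0.66 and -0.05 in the tumors and 0.06 and 0.08 in the normal ureters, also without overlap. Such values compare arrays and not the levels of different genes.

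Regulators of mitochondrial gene expression had a median difference of -0.24 over 10 genes. None was called by limma, against 1.43% of all genes tested, and 2 were lower at an unadjusted p under 0.05, against 10.9%. Both tumor arrays lay below both normal arrays for 3, against 27.7% of all genes tested, and above for 1, against 29.4%. Ppargc1b, a coactivator of respiratory genes, had 521 and 1022 in the tumors and 2388 and 1918 in the normal ureters, a difference of -1.53 (adjusted p = 0.150). Its relative Ppargc1a, named after its values were seen, had 265 and 2913 in the tumors, on either side of 1899 and 1713 in the normal ureters. The gene above on both tumor arrays was Pprc1, with 807 and 459 in the tumors and 322 and 286 in the normal ureters. Its difference was 0.97 (adjusted p = 0.237). Among 10 genes of the response to hypoxia, the glucose transporter Slc2a1 rose by 1.94 (adjusted p = 0.0441), with 5823 and 5217 in the tumors and 1288 and 1569 in the normal ureters. In the same list the mitophagy receptor Bnip3 stood at -1.76 (adjusted p = 0.0521), and the list's median was 0.10.

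Most markers of brown fat were lower on both tumor arrays, as most complex I genes were. The summed signal of the complex I members was 213061 and 332003 in the tumors and 558043 and 547935 in the normal ureters. Brown fat markers summed to 2660 and 3342 in the tumors and 57793 and 54703 in the normal ureters. Of the 7 tested, 3 fell, against 0.943% of all genes tested, and 5 had both tumor arrays below both normal arrays, against 27.7%. The others, Dio2 and Fabp3, named after their values were seen, overlapped between the groups and made up most of the tumor sums. Dio2 had 2354 and 610 in the tumors and 861 and 1006 in the normal ureters. Fabp3 had 55.4 and 2663 in the tumors and 2046 and 2610 in the normal ureters. Ucp1, the uncoupling protein that defines brown fat, was near 0 in the tumors at 3.15 and 3.41, against 19660 and 21580 in the normal ureters, and fell by 10.06 (adjusted p = 0.00863). Cidea, a lipid droplet protein of brown fat, had 138 and 1.69 in the tumors and 33091 and 27503 in the normal ureters, a difference of -9.18 (adjusted p = 0.0542). The part of brown fat in the lower complex I values was not tested.

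The other marker lists differed in direction and in the order of the tumor arrays. General fat markers summed to 38446 and 6263 in the tumors and 240080 and 256505 in the normal ureters. All 6 tested had both tumor arrays below the normal ones, against 27.7% of all genes tested. Of these, 0 were called by limma, against 1.43%, and 5 were lower at an unadjusted p under 0.05, against 10.9%. Smooth muscle markers summed to 12408 and 20263 in the tumors and 48173 and 37891 in the normal ureters, with 1 of 6 lower past the test, against 0.943% of all genes tested. Striated muscle markers summed to 314 and 272 in the tumors and 713 and 535 in the normal ureters. These sums are low, as only 2 of the 9 genes, Acta1 and Ckm, passed the filter. Urothelial markers summed to 35965 and 8094 in the tumors and 42965 and 73256 in the normal ureters. Of the 8, 3 fell, against 0.943% of all genes tested, and 6 had both tumor arrays below both normal arrays, against 27.7%. The other markers, Krt7 and Krt5, overlapped between the groups and made up most of the sum on tumor replicate 1. Krt5, named after its values were seen, had 15780 and 628 in the tumors and 3415 and 5518 in the normal ureters. Macrophage markers, of which 3 of 7 rose, against 0.491% of all genes tested, summed to 42973 and 35117 in the tumors and 9854 and 8453 in the normal ureters. Plasma cell markers summed to 69189 and 44415 in the tumors and 9139 and 11735 in the normal ureters, with a median difference of 4.55. Of these, 1 of 5 rose, against 0.491% of all genes tested, and 4 had both tumor arrays above both normal arrays, against 29.4%. The gene that rose was Jchain, the joining chain of secreted antibodies, at 5.31 (adjusted p = 0.0288). The macrophage and plasma cell sums were thus higher on both tumor arrays, where the complex I sum was lower, and their part in the complex I values was not tested.

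Kidney markers followed the order of the tumor arrays seen for complex I. Those of the proximal tubule summed to 5370 and 80086 in the tumors and 31279 and 54351 in the normal ureters, and those of the distal nephron to 1420 and 103622 in the tumors and 10494 and 16048 in the normal ureters. All 8 and all 5 were lower in tumor replicate 1 than in tumor replicate 2, as were 38 of the 42 complex I genes. Their part in the difference between the tumors was not tested. As a sign of RNA quality, the ratio of 3′ to 5′ signal was 1.51 and 1.44 for Gapdh in the tumors and 0.920 and 0.923 in the normal ureters. For Actb it was 2.47 and 2.63 in the tumors and 2.90 and 2.82 in the normal ureters, the opposite order, and its part in the complex I values was not tested either.

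**Figure D5:**
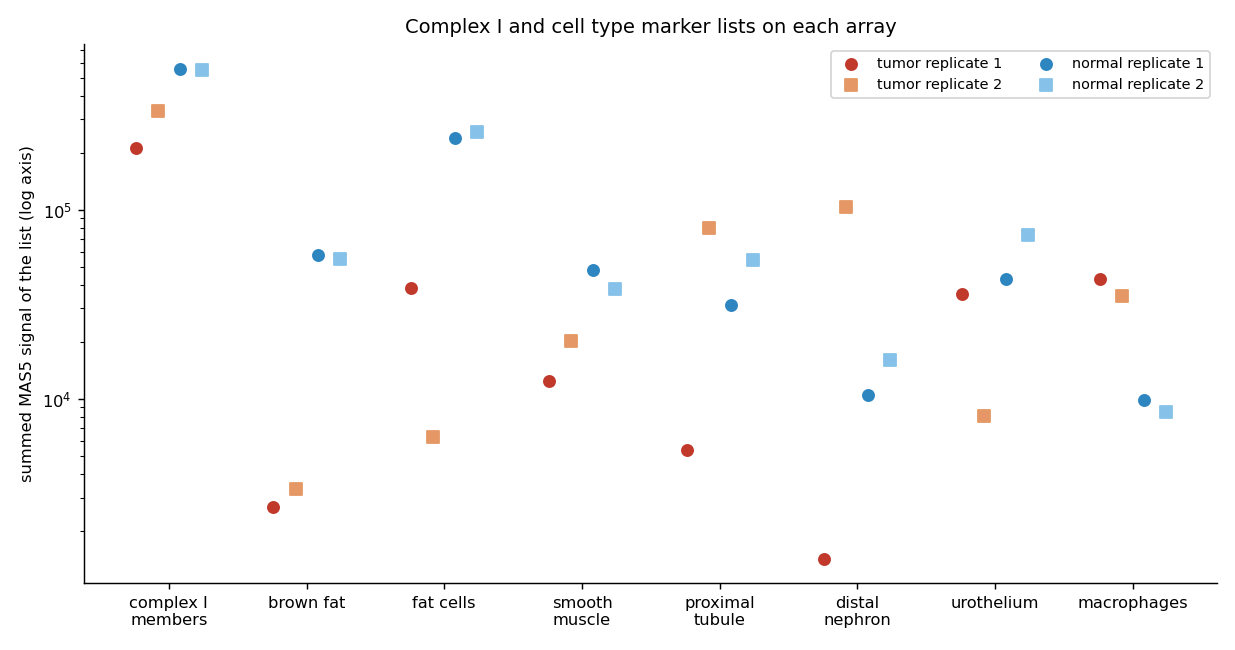
Summed MAS5 signal (log axis) of the complex I members and of 7 lists of cell type markers on each array, with tumor replicates in red and orange left of normal replicates in blue. The complex I sum is lower on both tumor arrays, as are the brown fat and fat cell sums, while the kidney sums split the tumor arrays and the macrophage sum is higher in both.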

How the data were processed

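The values analysed are the linear signal intensity per probe set that the authors deposited for 2 ureter tumors and 2 normal ureters. MAS5 produced them, per the submitters' processing notes, and its version, detection calls and filters are not known here. Trimming 2% of the probe sets from both ends left a mean of 500 on normal replicate 1, the only array for which this was computed. A value is read as relative to the rest of its array. Of 45101 probe sets, 64 were controls, 34945 had 1 gene symbol in the platform annotation (updated for 34741), 932 had several and 9160 had none here.

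The deposited intensity was transformed to log2(signal + 16), which understates differences of dim genes. For each gene the single-gene probe set of highest mean log2 value was taken, and a gene was tested if that mean reached the 40th percentile over non-control probe sets, which is a signal of 54.65. limma 3.58.1 (R 4.3.3) compared the 2 tumor with the 2 normal arrays, two-sided, using an intensity trend and no replicate block, with 2 residual and 2.11 prior degrees of freedom. matplotlib 3.10.9 drew the figures. The procedure was tested on simulated data.

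The complex I members and all lists were chosen with earlier results of these data known. The rule for genes given by array took the core subunits, the Ndufaf genes, Ndufa4, Ndufa4l2, Ndufab1, members past the threshold (none) and the 8 other members with the smallest unadjusted p. From other lists it took up to 3 genes with the smallest p, plus Ucp1 and Cidea. Krt7, Ndufv3, Ndufc1 and Ndufc2 were named after their values were seen, and the report says so of other genes outside the rule.

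The following were tried as alternatives: a pseudocount of 1 or of 64, quantile normalization, median centring, dropping the filter or raising it to the 60th percentile, averaging the probe sets of each gene, fitting all probe sets singly, dropping the intensity trend or making it robust, a replicate block, calling genes by 2-fold with an unadjusted p below 0.05, leaving out each array, and a filter on linear means that was chosen after seeing the data.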

Additional observations from a re-analysis of the deposited data

How the results depend on the processing

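None of the 42 complex I genes tested was called by limma under any alternative that kept all 4 arrays and the adjusted threshold. Calling by 2-fold with an unadjusted p below 0.05 took 20 of them and 1880 of all genes tested, and leaving out each array in turn gave 0 to 39 complex I genes and 0 to 5502 genes in all. The count over all genes was 187 as reported, 62 with centring on the median, 117 with probe sets averaged per gene, 473 over every probe set and 2 without the intensity trend. The causes were not tested.

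The same replicate number did not pair the samples (correlation of their deviations across genes, 0.04), and the replicate block gave 0 calls over all genes, 2253 at an unadjusted p under 0.05, and 0 among the complex I genes. The median complex I difference ranged from -1.39 to -0.67 over the alternatives. Centring on the median made it -0.77 and shifted the median of all genes to 0.24.

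Reversals were few: Ndufa2 with centring on the median (0.0741), Ndufaf2 (-0.0310) and Ndufaf4 (-0.0168) with quantile normalization, and Ndufaf4 with the mean of its probe sets (-0.10). With each array left out in turn, Ndufaf2 ranged from -0.26 to 0.29, Ndufaf4 from -0.41 to 0.45, Ndufaf6 from -1.02 to 0.19 and Ndufb6 from -0.68 to 0.20.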
